A study of Caenorhabditis elegans with 2 samples.

Results

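The genes described here are 10 forkhead genes of *Caenorhabditis elegans* other than *fkh-3* and its close paralogs, examined as possible targets of the forkhead protein FKH-3. They were taken by their Ensembl WBcel235 symbols from 19973 protein-coding genes on the nuclear chromosomes, all 10 were found there, and they held 50 of the 30000 regions listed for the pooled replicates. FKH-3 carrying a C-terminal GFP-FLAG tag was immunoprecipitated from whole young adult worms with an anti-GFP antibody (the antibody field of the labels names fkh-3), and the recovered DNA was sequenced (ChIP-seq). All worms were of 1 transgenic line, strain OP594 (unc-119(tm4063) III; wgIs594), so every sample carried the *unc-119* mutation and the integrated transgene. The worms were of both sexes, pooled, and were collected 63 hours after synchronization as starved L1 larvae obtained by bleaching. There was 1 group of 2 biological replicates, no condition was set against another, and the matched control was not analysed here. A signal from whole animals does not show in which cells a region was bound.

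Forkhead proteins bind DNA through a winged-helix domain, and many of them fix the identity of a tissue or a neuron. *pha-4*, a FoxA gene, specifies the pharynx, the feeding organ. *daf-16*, the FoxO gene, is held out of the nucleus by insulin signalling and controls lifespan and stress resistance. *lin-31* acts downstream of MAP kinase in the cells that form the vulva, *unc-130* acts in neuronal fate and cell migration, and *let-381* acts in mesoderm. *fkh-2* and *fkh-8* act in ciliated sensory neurons, and *fkh-9* acts in adult neurons.

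A region was assigned to a gene when its summit, the position of highest signal, lay in the gene or within 2 kb upstream of any of its transcript starts. Regions were ranked within a list by the authors' signal, a score without a stated scale, with rank 1 the highest. Each replicate, and both pooled, had a list of 30000 regions in which peaks and background are mixed. The 441 pooled regions that passed the irreproducible discovery rate (IDR) threshold were the 441 of highest signal. No read counts are in the lists, so the depth of the libraries is unknown. With 1 group, no test was made. The main counts of members are given beside the same count over all protein-coding genes, but some other counts have no such share.

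The sequence under the highest *pha-4* region and those of 2 other members are shown. Those of *pha-4* and *fkh-7* place the forkhead motif against the summit, and that of *fkh-9*, which holds no match, shows the short intron under its highest summit. They are from the RefSeq sequence of WBcel235 (ce11), each on the strand of its gene. In the *pha-4* stretch, at chrV:20756330-20756610 on the plus strand, capitals mark matches to the forkhead motif, searched on both strands as GTAAACA, its form GTAAATA with T before the last base, or the forms ATAAACA and also ATAAATA that begin with A. In the *fkh-9* stretch, at chrX:3818088-3818288 on the minus strand, capitals mark an intron of 56 bp that holds the summit. In the *fkh-7* stretch, at chrIV:5604749-5604949 on the plus strand, capitals again mark forkhead matches. Within 100 bp of the summit, this *fkh-7* summit had more of them than any other member summit. The *pha-4* stretch reaches farther from its summit, and its matches lie beyond 100 bp.
pha-4: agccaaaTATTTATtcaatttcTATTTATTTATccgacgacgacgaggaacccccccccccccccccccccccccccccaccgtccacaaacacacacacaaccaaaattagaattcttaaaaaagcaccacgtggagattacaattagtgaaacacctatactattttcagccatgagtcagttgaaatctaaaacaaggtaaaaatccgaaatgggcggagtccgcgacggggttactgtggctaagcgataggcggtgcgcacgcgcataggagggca
fkh-9: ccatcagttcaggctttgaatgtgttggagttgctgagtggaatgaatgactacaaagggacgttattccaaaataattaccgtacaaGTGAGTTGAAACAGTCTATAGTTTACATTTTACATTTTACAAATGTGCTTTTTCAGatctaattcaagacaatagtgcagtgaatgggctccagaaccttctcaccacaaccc
fkh-7: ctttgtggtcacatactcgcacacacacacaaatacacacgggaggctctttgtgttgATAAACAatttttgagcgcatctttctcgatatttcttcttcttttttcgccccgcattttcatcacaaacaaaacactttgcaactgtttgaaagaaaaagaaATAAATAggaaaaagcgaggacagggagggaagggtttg

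*daf-16* and *pha-4* were the 2 members with a region in the IDR list, and *daf-16* had 2 such regions. Of the 10 members, 2 thus had an IDR summit, while 446 of 19973 protein-coding genes had one (2.23%). *fkh-10* came next and lay outside the IDR list, and it brought the members with a summit among the 1000 highest pooled regions to 3 of 10 (4.95% of all genes). With *fkh-9*, 4 of 10 had a summit among the 5000 highest (21.0% of all genes). The other 6 members (*lin-31*, *fkh-7*, *fkh-2*, *unc-130*, *let-381* and *fkh-8*) had their highest region at ranks from 9213 to 23671. All 10 members had some listed region, as did 68.7% of all genes. The median of the members' highest ranks was 10037.5, and it was 9402 over all genes with a listed region. This median depended on the list: it was 4064 for the members and 9558 for all genes in replicate 1, and 6967 for the members and 9506 for all genes in replicate 2.

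The IDR count of the members was not met by either replicate alone. Among the 441 highest regions of replicate 1 there was none at a member (2.29% of all genes had one), and among those of replicate 2 there was 1 member, *daf-16* (2.22% of all genes). Among the 1000 highest, replicate 1 had 2 members (5.01% of all genes), *pha-4* and *daf-16*, and replicate 2 had 3 (5.08% of all genes), *pha-4*, *daf-16* and *fkh-10*. Among the 5000 highest, replicate 1 had 6 members (21.3% of all genes), and replicate 2 had 5 (21.1% of all genes). *lin-31*, *let-381* and *fkh-2* were among those of replicate 1 only, and *fkh-7* and *fkh-9* among those of replicate 2 only. All 10 members had a region in replicate 1 (71.3% of all genes) and in replicate 2 (70.2% of all genes). The upper part of the IDR list, divided at its middle rank, held no member. The share of all genes for that part is not given, but the whole IDR list reached only 2.23% of them. With 10 members this count shows no difference.

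**Figure D1:**
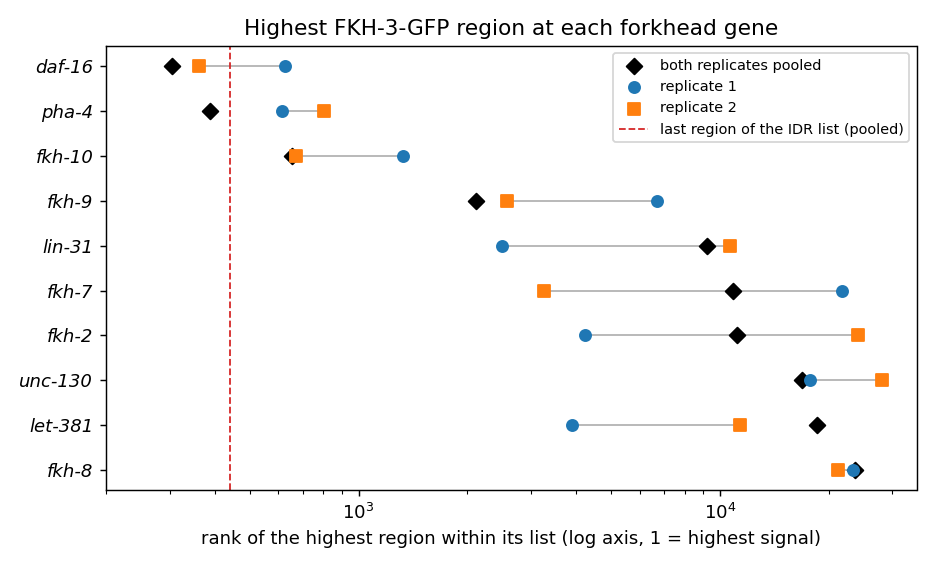
Rank of the highest region at each of the 10 forkhead genes (log axis, 1 is the highest signal) in the pooled list and in each replicate, with the last rank of the IDR list as a dashed line that applies to the pooled list. *daf-16*, *pha-4* and *fkh-10* lie at ranks up to 1324 in all 3 lists, and the other genes lie at lower signal with wide gaps between the replicates at *lin-31*, *fkh-7* and *fkh-2*.

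*daf-16*, on chromosome I from 10750498 to 10776703 on the plus strand, had 19 pooled regions, 13 regions in replicate 1 and 19 in replicate 2. Its highest region, on chromosome I from 10776221 to 10776610, ranked 304 in the pooled list with a signal of 127 and a −log10 q-value of 2.06 as the authors gave them. The matching region ranked 625 in replicate 1 and 361 in replicate 2, and the replicate 2 summit lay 5 bp from the pooled one. The summit lay 287 bp before the end of the gene, in the 3'UTR of the last exon of 3 of the 11 annotated transcripts, R13H8.1a.1, R13H8.1b.1 and R13H8.1c.1. The nearest other protein-coding gene, *gpx-8*, lay 5699 bp from it. A further region, of rank 4145, had its summit in the same 3'UTR, and the replicate 1 region of rank 625 covered both pooled summits and had its own summit between them.

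The other IDR region of *daf-16*, on chromosome I from 10769805 to 10770194, ranked 309 with a signal of 127. It ranked 2211 in replicate 1 and 540 in replicate 2, so its place among the highest regions was carried more by replicate 2. Its summit lay in an intron, 1508 bp upstream of the start of transcript R13H8.1a.1 and 88 bp from *R13H8.5*, a gene annotated as ncRNA on the minus strand. The 2 IDR summits were 6416 bp apart. Only 12 genes (0.0601%) had 2 or more IDR summits, and in 4 of them, *daf-16* included, the summits were this far apart or farther. Of these genes, 8 were among the 3995 with the longest windows, the length class of *daf-16* (0.200% of that class). A long window also allows a wider spacing.

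With the *daf-16* window divided at its midpoint, 14 of the 19 pooled summits lay in the 3' part and 5 in the 5' part. The split was 11 in the 3' part and 2 in the 5' part in replicate 1, and 11 and 8 in replicate 2, so the lean toward the 3' end was weaker in replicate 2. More pooled summits in the 3' part than in the 5' part were also found at *pha-4* (4 of 5), *fkh-7* (4 of 5), *fkh-2* (4 of 4) and *fkh-9* (5 of 7). *lin-31* had 3 of 5 in the 5' part, and at *pha-4* the split was 2 and 2 in replicate 1. The window includes the sequence upstream, so at a short gene its 3' part is nearly the whole gene, as at *fkh-2* (window 4.12 kb, gene 2117 bp). The same split over all genes is not given, so no lean particular to the members is shown. All 7 *daf-16* summits among the 5000 highest except 1 lay from 18264 to 26135 bp downstream of the first start. The starts of R13H8.1a.1 and R13H8.1e.1, at 21010 and 22501 bp, are in this stretch. Only the summits of ranks 2410 and 3713 were close to them, 122 bp downstream and 501 bp upstream. Those of ranks 309 and 2603 were 1508 and 2746 bp upstream of the nearest start, and those of ranks 304 and 4145, in the 3'UTR, 3417 and 3634 bp past it. The exception, of rank 1794, lay 8823 bp from the first start in an intron, ranked 7358 in replicate 1 and 1941 in replicate 2, and held the only match to GTAAACA within 100 bp of any member summit. A summit of rank 2410 lay 122 bp downstream of the start of R13H8.1a.1, in coding sequence, and ranked 11007 in replicate 1 and 1743 in replicate 2. A summit of rank 2603 was in no region of replicate 1 and ranked 1060 in replicate 2. Replicate 2 thus placed these 3 regions higher than replicate 1 did.

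*pha-4*, on chromosome V from 20753052 to 20760317 on the plus strand, had 5 pooled regions, 4 regions in replicate 1 and 6 in replicate 2. Its IDR region, on chromosome V from 20756315 to 20756704, ranked 387 with a signal of 120 and a −log10 q-value of 2.06. It ranked 614 in replicate 1 and 803 in replicate 2, and the summits of the replicates lay 1 and 2 bp from the pooled one. This was the closest match between replicates in rank and position among the 3 highest members. The summit lay in an intron, 3458 bp downstream of the first start and 400 bp upstream of the most downstream start, that of F38A6.1c.1. It was 19 bp from *F38A6.9*, an ncRNA gene on the minus strand from 20756529 to 20756737. No other *pha-4* region ranked above 17377, and none of them had its summit in regions of both replicates. In the printed stretch the forkhead matches are centred at −170, −155 and −151 bp from the summit, the last 2 of them overlapping, and none lies within 100 bp. A run of 29 C bases lies between them and the summit.

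*fkh-10*, on chromosome I from 10163475 to 10165132 on the minus strand, had 1 pooled region, 1 region in replicate 1 and 2 in replicate 2. The pooled region, on chromosome I from 10163638 to 10164027, ranked 655 with a signal of 105 and a −log10 q-value of 1.60. It ranked 1324 in replicate 1 and 673 in replicate 2, with summits 34 and 3 bp from the pooled one. The summit lay in the coding part of exon 3, the last exon, 1299 bp downstream of the start. The place also lies within 2 kb upstream of *tag-72*, and *C25A1.1* lay 255 bp from the summit, so the region cannot be assigned to *fkh-10* alone. The last IDR region had a signal of 115 at rank 441 and the next pooled region, also 115, did not pass.

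*fkh-9*, on X from 3816847 to 3826963 on the minus strand, had 7 pooled regions, 7 regions in replicate 1 and 9 in replicate 2. The highest, on X from 3817993 to 3818382, ranked 2120 with a signal of 81.3 and a −log10 q-value of 0.872. It ranked 11125 in replicate 1 and 2575 in replicate 2, and the replicate summits lay 69 and 134 bp from the pooled one, inside a coding exon. The next *fkh-9* region, in the 3'UTR, ranked 7426 in the pooled list, 6690 in replicate 1 and 5909 in replicate 2. The region of highest rank in the pooled list was thus not the one on which the replicates were closest.

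The 6 remaining members had weaker regions that often differed between replicates. The −log10 q-values of their highest pooled regions ran from 0.251 at *lin-31* down to 0.0788 at *fkh-8*. From rank 1794 on, no member region had a value above 0.945. The authors' q-values thus do not set these regions apart from background. *lin-31*, on chromosome II from 3982549 to 3987029, had its highest pooled region 419 bp upstream of its start, at rank 9213, with ranks of 8631 in replicate 1 and 10672 in replicate 2. Replicate 1 placed another *lin-31* region at rank 2493, in an intron at the ncRNA gene *K10G6.6*, where replicate 2 had none. *fkh-7*, on chromosome IV from 5584684 to 5610378, had an intronic region at rank 11180 that ranked 3262 in replicate 2 and was in no region of replicate 1. Its highest pooled region, at rank 10862, lay in a noncoding exon near the piRNA gene *21ur-3187* and was likewise in replicate 2 alone, at rank 8789. *fkh-2*, on X from 3740207 to 3742323, had 4 regions, the highest at rank 11174 in coding sequence 95 bp downstream of its first start, with ranks of 25086 in replicate 1 and 26004 in replicate 2. Another *fkh-2* region, of pooled rank 11398, ranked 4241 in replicate 1 and 24101 in replicate 2.

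*unc-130*, on chromosome II from 11281966 to 11283959, had its highest region in coding sequence at rank 16923, with ranks of 17755 in replicate 1 and 28055 in replicate 2. *let-381*, on chromosome I from 6320289 to 6324019, had 1 pooled region, 247 bp upstream of its start at rank 18612. That region ranked 3887 in replicate 1 and had no counterpart in replicate 2, whose only *let-381* region was in an intron at rank 11337. *fkh-8*, on chromosome II from 6189623 to 6191393, had 1 pooled region at rank 23671, and its summit was in no region of either replicate. Of these 3 genes, *unc-130* alone had its highest pooled summit within a region of each replicate.

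The order of the members was only in part kept by the replicates. Of the 9 pairs of neighbours in the pooled order, 3 had the same order of highest ranks in both replicates, and in 2 of them the ranks of the pair did not overlap. These 2 were *fkh-10* before *fkh-9* and *let-381* before *fkh-8*. The highest region of a gene was not always the same one in each list. That of *fkh-9* in replicate 1 was the 3'UTR region (rank 6690), and that of *let-381* in replicate 2 an intronic one (rank 11337). Neither replicate region of *fkh-8* held its pooled summit. *daf-16*, *pha-4* and *fkh-10* changed places among themselves, with *pha-4* at 614 and *daf-16* at 625 in replicate 1, and *fkh-10* at 673 before *pha-4* at 803 in replicate 2.

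The size of a gene's window bears on these ranks, since a longer window holds more summits. *daf-16*, *pha-4*, *fkh-9*, *fkh-7* and *lin-31* were in the longest of 5 length classes of equal size, with windows of 6.32 to 105 kb. In that class 3.90% of genes had an IDR summit, 8.89% one in the top 1000 and 35.8% one in the top 5000, and of the 5 members there 2, 2 and 3 had one. A highest region at least as high as that of *daf-16* was found for 1.54% of all genes and 2.65% of that class. For *pha-4* these shares were 1.96% and 3.40%. *fkh-10*, with a window of 3.66 kb, was in the class of the next to shortest windows, in which 3.28% of genes had a summit in the top 1000 and 2.18% reached its rank. For *fkh-9* the shares were 10.0% of all genes and 17.9% of its class. None of *fkh-2*, *unc-130* and *fkh-8*, in the middle class, reached the top 5000 (16.9% of that class), nor did *let-381* in the next longer one (23.6%). *fkh-10* reached it in its own class (14.9%).

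**Figure D2:**
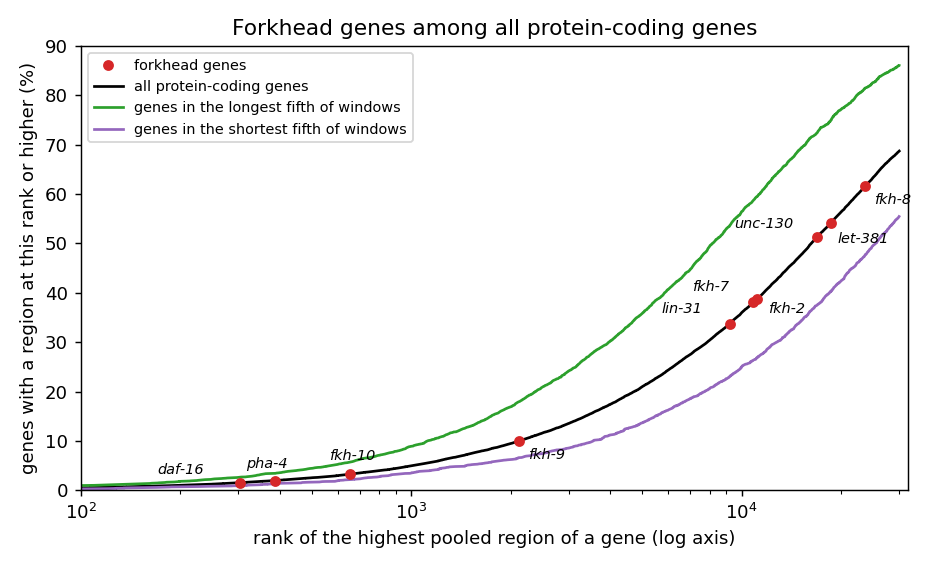
The 10 forkhead genes as red points on the curve of all protein-coding genes: the share of genes (%) whose highest pooled region had a given rank or a higher one (log axis), with further curves for the longest and shortest of 5 classes of window length. *daf-16*, *pha-4* and *fkh-10* sit at 1.54 to 3.27%, *fkh-9* at 10.0% and the other 6 between 33.7 and 61.6%.

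The number of regions followed the size of the window in part. The 10 members held 50 pooled regions, from 1 to 19 per gene, and 19 of the 50 were at *daf-16*. As many as 19 were found at 0.135% of all genes and 0.676% of the longest class. Some listed regions overlap, such as those of ranks 304 and 4145 and of ranks 2410 and 27210 at *daf-16*, and 11398 and 27814 at *fkh-2*. The counts and densities are therefore of listed regions, not of separate places. *fkh-7* has a window of 27.7 kb, close to the 28.2 kb of *daf-16*, and held 5 pooled regions, 4 regions in replicate 1 and 9 in replicate 2. Per kb of window, *daf-16* held 0.674 regions and *fkh-7* 0.181, while the median gene of the longest class held 0.287. *fkh-2* had the highest pooled density of the members, 0.972 per kb, which 4.11% of all genes reached. In replicate 1 it was also 0.972 per kb, but in replicate 2 it was 0.486, below *fkh-9* at 0.743, *daf-16* at 0.674, *pha-4* at 0.648 and *fkh-10* at 0.547. *daf-16* and *fkh-7* thus differed in number and in highest rank in the pooled list and in each replicate, although their windows are alike in length.

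**Figure D3:**
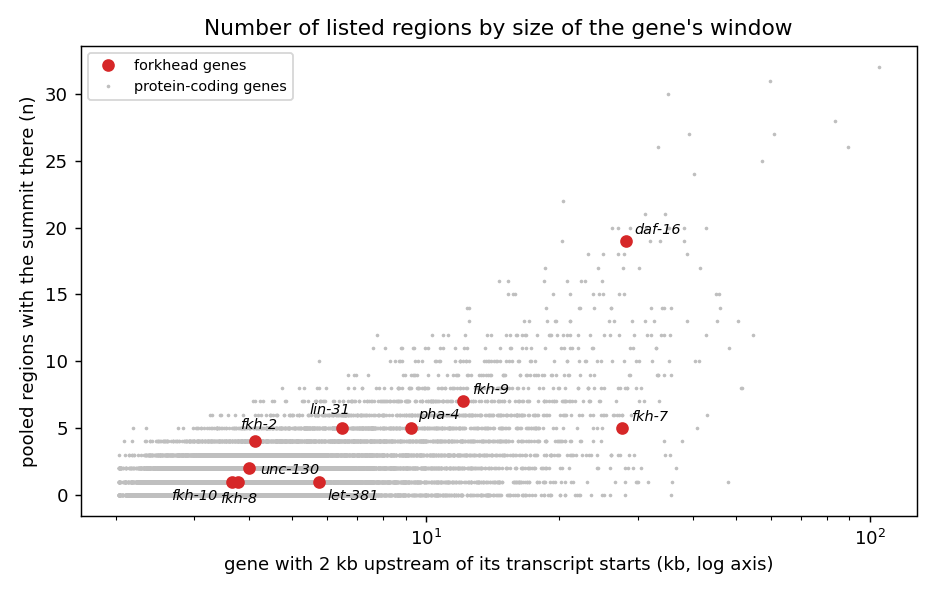
Number of pooled regions with the summit in a gene or up to 2 kb upstream of its starts, against the length of that window (kb, log axis), with the 10 forkhead genes in red and each protein-coding gene as a grey dot. *daf-16* has 19 regions and *fkh-7* 5 at nearly the same length.

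Of the 50 member summits, 10 were in the top 5000, so the counts that follow rest mostly on lower ranks of the mixed list. By position, 28 of the 50 member summits were in introns (56%), while introns took 27.4% of all pairs of a gene and a summit. Without *daf-16* it was 15 of 31 (48.4%). Upstream sequence outside every transcript of the gene held 6 of 50 (12%, against 11460 of 33668 pairs) and coding exons 11 (22%, against 33.4%). A summit inside any transcript was labelled exon or intron, even where it lay upstream of another start. Several intronic summits were within 2 kb upstream of such a start, among them the *pha-4* IDR summit (400 bp) and the *daf-16* summit of rank 309 (1508 bp). The 12% is thus not the share of summits near a promoter. *daf-16*, *fkh-7* and *fkh-9* have several transcript starts and long introns, and the lengths of introns and exons were not adjusted for. None of the 50 summits was within 100 bp of a tRNA, snoRNA or snRNA gene. Such genes were near 1.79% of summits at any protein-coding gene and 2.05% of all pooled summits, so this count shows no difference. They were near 37.4% of IDR summits. Genes annotated as ncRNA were within 100 bp of 9 member summits (18%, against 4.68% of summits at any protein-coding gene). Among intronic summits it was 7 of 28 (25%, against 6.52%). They included the *pha-4* IDR summit and 1 of the *daf-16* IDR summits. Strong regions were often near such genes: 25.6% of all IDR summits and 11.0% of the 5000 highest pooled summits were within 100 bp of one. Of the 10 member summits in the top 5000, these 2 were near one (20%). The other member summits near an ncRNA gene had ranks from 6583 to 25903, so most of the 9 were not strong regions. Without summits near ncRNA genes, a setting chosen after seeing the data, *daf-16* was the only member with an IDR region. The part of these ncRNA genes in the result was not tested.

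**Figure D4:**
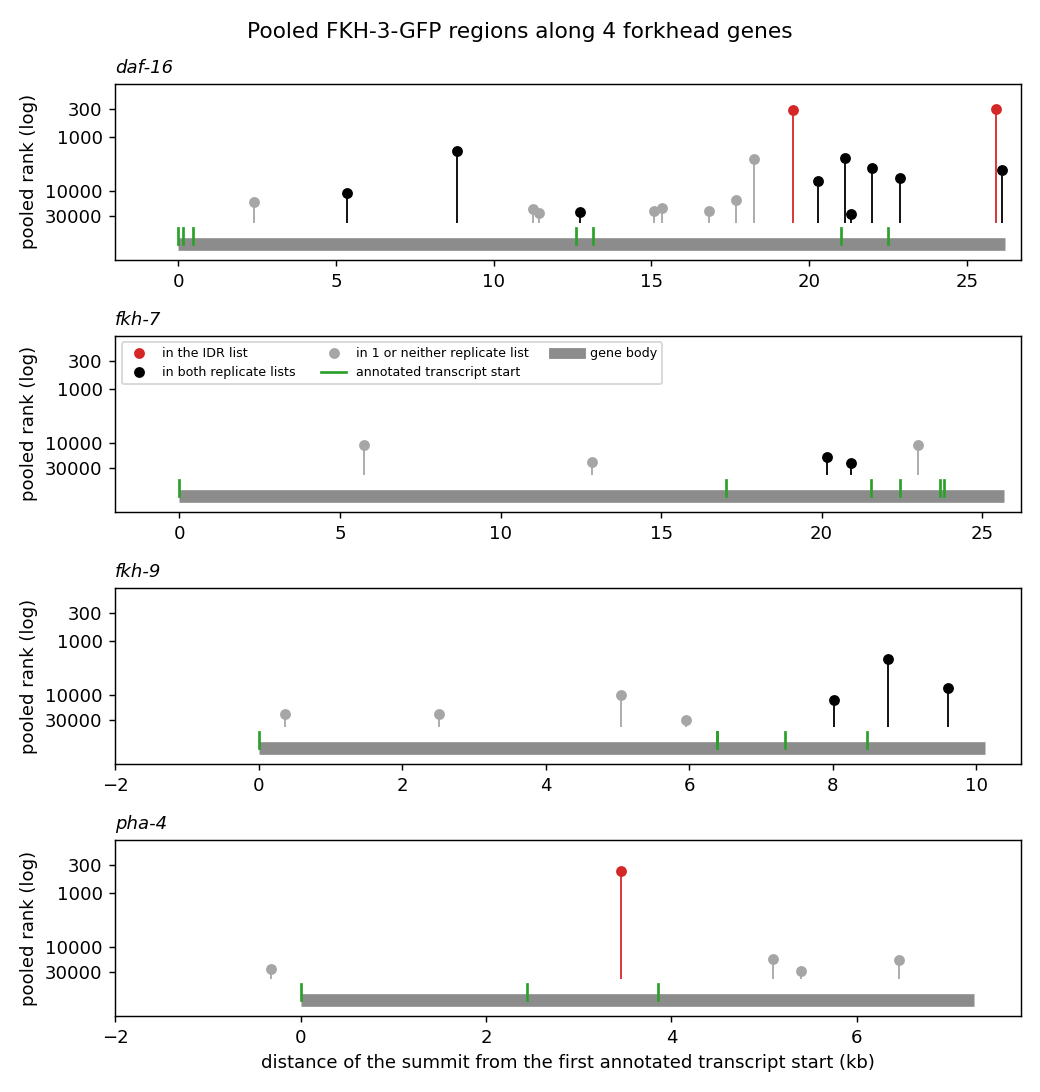
Pooled regions along *daf-16*, *fkh-7*, *fkh-9* and *pha-4* by distance of the summit from the first transcript start (kb) and by pooled rank (log axis, highest signal at the top), with IDR regions in red, regions found in both replicates in black and others in grey, over the gene body and its annotated starts. Of the 7 *daf-16* regions in the top 5000, all but the one of rank 1794 lie in its 3' part, those of *fkh-7* begin at rank 10862, and *pha-4* has 1 region of high rank, upstream of its last start.

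Presence in both replicates was also counted over the member regions as a set. Of the 50 member summits, 24 (48%) lay in a region of both replicate lists, against 39.8% of all pooled summits. Replicate 1 covered 33 of them and replicate 2 covered 38, and 3 were in neither. A replicate region that held more than 1 pooled summit, as that of rank 625 in replicate 1 at *daf-16* did, was counted for each. Among the 10 member summits of the top 5000, 9 were in both replicates (90%, against 87.4% of the 5000 highest pooled summits). Of the 36-base words in the 201 bp around each summit, none recurred elsewhere in the reference at 49 of 50 summits, and at most 4.22% did at the remaining *pha-4* summit, of rank 17996.

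The forkhead motif was counted at the member summits beside all summits. A match lay within 100 bp of 6 of 50 member summits (12%), against 13.7% of all pooled summits and 18.2% of all windows of the same length along the chromosomes. The motif consists mostly of A and T. The median GC content within 100 bp was 43.8% at member summits and 41.3% at all pooled summits. These shares were not adjusted for base composition, so a lower share does not show that the motif is avoided. Within 250 bp it was 11 of 50 (22%), against 32.7% of all pooled summits. The form GTAAACA, known as the DAF-16 binding element, lay within 100 bp of 1 member summit (2%), against 2.14% of all pooled summits and 2.27% of all windows. *daf-16* had matches at 3 summits, of ranks 1794, 24221 and 24327, and none at its 2 IDR summits, not even within 250 bp. *fkh-7* had 2 matches at 1 summit of rank 18793, the stretch printed above, and *let-381* and *fkh-9* had matches at summits of ranks 18612 and 23262. Of the members' highest summits, that of *let-381* alone had a match within 100 bp. A match is only a run of letters, and its absence says only that these letters are not in the window.

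The other forkhead genes held 0 to 2 pooled regions each. *fkh-3* itself had 1 pooled region, of rank 6063, at −501 bp from its start, with ranks of 5980 in replicate 1 and 7529 in replicate 2. *fkh-4* had none in the pooled list, and *fkh-6*, *fkh-5* and *pes-1* had their highest at ranks 13345, 18517 and 20326. Of these 5 genes, 0 had a summit in the top 5000, and 21.0% of all genes had one; with 5 genes this count shows no difference.

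Genes that act with the members were examined from 4 fixed lists, and none had an IDR region. Of 14 pharynx genes, 2 had a summit in the top 5000, as had 6 of 19 genes of insulin signalling to DAF-16 and its targets, 5 of 14 genes of vulval induction and 2 of 13 genes of mesoderm and axon guidance, beside the 21.0% of all genes. The windows of the vulval genes were long, with a median of 11.6 kb against 4.03 kb for all genes. One gene of these lists reached the top 1000. This was *par-5*, which encodes a 14-3-3 protein, which binds phosphorylated DAF-16, with a summit in its 3'UTR at rank 783, on chromosome IV from 11820491 to 11820880, also within the window of *M117.3*. It ranked 181 in replicate 1 and 2305 in replicate 2.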

How the data were processed

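ChIP-seq of tagged FKH-3 was analysed in 2 biological replicates of 1 group. The authors deposited lists in narrowPeak format on ce11: 1 for each replicate and 1 for both pooled, as input to IDR, and the pooled regions past the IDR threshold. Each deposited list gives a signal score of no stated scale, a q-value of the authors as −log10, and the summit as another column, per the file layout. No label or header names a caller or aligner (not given in the sources used here). Nearly all regions of a list have 1 width (364 bp in replicate 1, 400 bp in replicate 2, 390 bp pooled). The ce10 lists were not used.

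Summits were assigned with Ensembl 115 models of WBcel235, the assembly of ce11, and its RefSeq sequence, in Python 3.11.15 with pandas 2.3.3. A pooled region was in a replicate when its summit lay in a region of that list. The assignment and motif search were tested on simulated data and found 200 of 200 planted summits and 200 of 200 motifs. All members, the other forkhead genes, genes at the members' highest summits and list genes in the top 1000 were named by rule. *R13H8.5*, *K10G6.6* and genes next to a highest summit were named after their values were seen. The members and lists were chosen with earlier results of these data known. Depth is unknown, so no interval is given.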

Additional observations from a re-analysis of the deposited data

How the results depend on the processing

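No paired analysis was possible because all samples belong to 1 group. With 1 kb or 5 kb upstream, with each summit given only to the nearest transcript start, or with starts of coding transcripts only (added after seeing the data), the members with an IDR region remained 2, *pha-4* and *daf-16*. The count was 0 to 1 leaving out each replicate, where the 441 highest regions of the other replicate stand in. It was 0 in the upper part of the IDR list, a smaller list for which no share over all genes is given. It was 1 without summits near ncRNA genes, a setting added after seeing the data that removes such summits. Members in the top 1000 were 2 to 3 and in the top 5000 3 to 6 over the settings run, and member regions 42 to 58. Shares over all genes are given above for each replicate but not for the other changed settings. The median highest rank, 10037.5, was 5906.5 with 5 kb upstream, a longer window, and 4064 to 6967 leaving out each replicate. No median over all genes is given for 5 kb upstream. Member summits in both replicates were 18 of 50 with replicate summits within 100 bp (36%, against 28.8% of all pooled summits). With the top 5000 regions of each replicate, a smaller list, they were 5 of 50 (10%, against 5.43%). Member summits with a forkhead match were 11 within 250 bp (22%, against 32.7% of all pooled summits) and 1 for GTAAACA alone (2%, against 2.14%). In the top 5000 it was 1 of 10 (10%, against 12.1% of the 5000 highest pooled summits). In these settings fewer summits or forms were counted or the window was longer. Of 40 comparisons of a single member's highest rank, 30 moved by no more than the SD between replicates and 10 moved by more, all of them on leaving out a replicate. That SD comes from the same 2 replicate ranks and is wide where they differ: *fkh-2* moved to rank 2600 with 5 kb upstream, from 11174, and so entered the top 5000, within its SD. Why replicates differed was not tested. Depth limits what can be said of the lower ranks, since no read counts are at hand.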

Other observations

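The words ATGCGC and CGCGCA, chosen because earlier results of these data named them, lay within 100 bp of the *pha-4* IDR summit, centred 89 and 88 bp downstream of it, where they overlap. Searched on both strands, ATGCGC was at 4 of 50 member summits (8%), against 4.30% of all pooled summits, and CGCGCA at 7 of 50 (14%), against 4.77%. In the IDR list the shares were 9.30% and 11.3%. The other member summits with either word within 100 bp had ranks from 17377 to 27210. No test was made.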
